A study of Mus with 6 samples.

Results

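The genes described here are 5 genes that mark cartilage cells, Sox9, Col11a1, Col9a3, Comp and Ucma, chosen by name from the 11659 genes of a table of read counts. All 5 were found in the table by their position and all 5 could be tested. RNA was sequenced from knee cartilage chondrocytes of 12-week-old C57BL/6J mice, where 3 samples were wild type (WT) and 3 carried a conditional knockout of Sirt6 (Sirt6 cKO). In Sirt6 cKO mice the floxed Sirt6 alleles are removed by Col2a1-CreERT2, a Cre recombinase driven by the promoter of the type II collagen gene and switched on by tamoxifen, so the deletion reaches cells in which that promoter is active. The labels call the controls wild type, whereas other experiments of the study used Sirt6 flox/flox littermates. Tamoxifen treatment is described for mice of the study's other experiments and is not stated for the mice sequenced here. The methods describe chondrocytes released from cartilage with collagenase and used at the first passage in all experiments, and the labels describe RNA from frozen material. The description of the data names chondrocytes of as many control and knockout mice as there are samples, which can be read as 1 animal for each, while the labels tie no sample to an animal. If samples share an animal, p-values measure only technical spread.

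Sox9 is the transcription factor that commits mesenchymal cells to the cartilage lineage and keeps the genes of the cartilage matrix switched on. In cartilage, thin fibrils are built from type II collagen around a core of type XI collagen, of which Col11a1 encodes the alpha 1 chain, and they are covered with type IX collagen, of which Col9a3 encodes the alpha 3 chain. Comp encodes cartilage oligomeric matrix protein, a thrombospondin that bridges collagen fibrils, and Ucma encodes a small Gla-rich protein secreted by chondrocytes. Chondrocytes that flatten in culture lose these products and make type I collagen, a process called dedifferentiation.

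The counts summed to between 25726958 and 30156935 per sample. The targeted gene Sirt6 had 9963 to 10943 raw counts in the WT samples and 660 to 1056 in the Sirt6 cKO samples. WT replicate 1 stood apart from the other WT samples, with correlations of 0.969 and 0.971 across genes against 0.993 between WT replicates 2 and 3, and values without it are given where they matter. In parts of the table the counts stand on another row than their gene label, which shows as a lost relation between exon length and count. Windows reached 250 rows to either side of the 5 genes, except that the window of Sox9, in row 46, was cut at the top of the table. In these windows, Spearman's rho across genes between exon length and the count of the same row lay between 0.269 and 0.346. For counts 1 to 5 rows away it was at most 0.129, so counts and labels lined up at all 5 genes. This held for 57.9% of the rows, and genes in other rows are named as uncertain. Of 16 chondrocyte marker genes, 6 had a row, and the defining genes Col2a1 and Acan were not analysed here.

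Among the 5 genes, Col11a1, Comp and Ucma were higher in Sirt6 cKO chondrocytes, by 16.0-fold, 11.5-fold and 48.4-fold. Sox9 was 1.54-fold higher, which did not reach the fold threshold, and Col9a3 did not pass the test, with a log2 fold change of -0.53. To be called, a gene needed an adjusted p below 0.05 in the quasi-likelihood test of edgeR (Benjamini-Hochberg over all 11246 genes tested) and a fold change over 2 or under 0.5. This rule called 8.72% of the tested genes higher in the knockout and 7.15% lower. In normalised counts the genotypes were apart for all 5 genes, with every Sirt6 cKO sample above every WT sample for 4 genes and below for Col9a3. Of all genes tested, 60.9% were apart in this way, 30.2% with the knockout above and 30.6% with it below. For a single gene, an exact two-sided permutation test of samples that are apart gives its smallest possible p in this design, 0.1. In RNA from bulk cells, fewer cells of a type and less RNA per cell cannot be told apart.

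**Figure D1:**
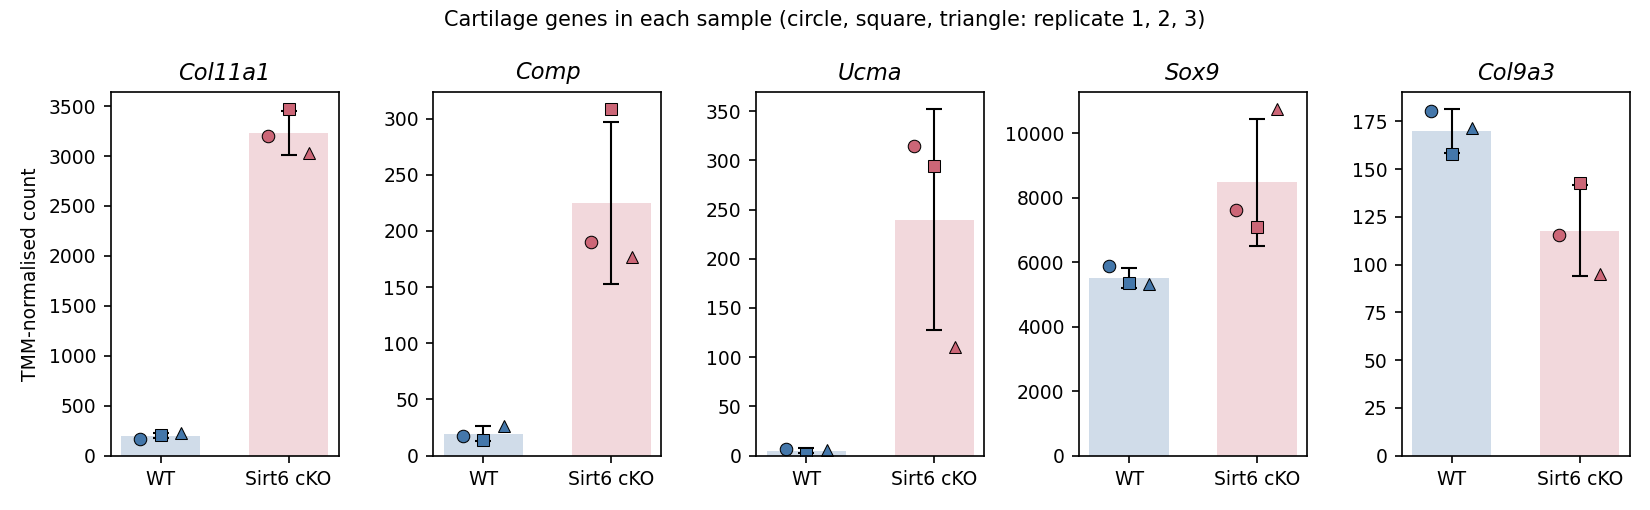
Counts normalised by edgeR's TMM method (y axis, a separate scale for each gene) of the 5 cartilage genes in the 3 WT and 3 Sirt6 cKO samples. Bars are group means, error bars the SD and symbols the samples. Col11a1, Comp and Ucma sit near 0 in WT samples, all 3 Sirt6 cKO samples of Sox9 lie above the WT samples, and those of Col9a3 lie below them.

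Sox9 (ENSMUSG00000000567) lies on chromosome 11 from 112782224 to 112787760 on the plus strand, in 3 exons that fill 74.7% of the gene. Its raw counts were 4917, 5489 and 5595 in WT replicates 1, 2 and 3 and 7730, 7404 and 11059 in Sirt6 cKO replicates 1, 2 and 3. The WT samples were close together, whereas Sirt6 cKO replicate 3 stood well above the others. After TMM normalisation WT chondrocytes averaged 5519.6 ± 313 counts (SD, n = 3), while Sirt6 cKO chondrocytes averaged 8486 ± 1978 (SD, n = 3). In edgeR's test the log2 fold change of 0.62 had a standard error of 0.17 and an adjusted p of 0.0170, past the p threshold but under the fold threshold. Without Sirt6 cKO replicate 3 it was 0.43 (adjusted p = 0.0316), without WT replicate 1 it was 0.67 (adjusted p = 0.0102), and without WT replicate 3 the adjusted p was 0.0505 in the same edgeR test. A larger log2 fold change was found for 20.7% of the tested genes. The mean change of Sox9 was therefore small next to that of many other genes.

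Of 17 genes listed with Sox9 as partners, cofactors and regulators of chondrocytes, 9 were tested, of which 1 was called higher and 0 lower, a count near the 8.72% and 7.15% over all tested genes. The gene called was Trps1, a GATA-type repressor of the growth plate. The WT samples had 687, 2261 and 2219 raw counts of it, against 4582, 5347 and 5355 for Sirt6 cKO. WT replicate 1 held the low value, but the groups did not overlap. In edgeR's test Trps1 rose by 1.53 on the log2 scale, with 0.32 as its standard error (adjusted p = 0.00509), and without WT replicate 1 it was 1.20 (adjusted p = 3.64e-05). Like Mgp, described further on, Trps1 was not called by edgeR's glmTreat, which tests against a fold of 2. With no fold threshold, 4 genes of this list passed and were higher, which were Sox9, Trps1, Mef2c and Arid5b, against 22.5% of all tested genes. Mef2c, which drives chondrocyte hypertrophy, had a log2 fold change of 0.94, and it was called with upper-quartile normalization (1.02), without WT replicate 2 (1.15) and without Sirt6 cKO replicate 3 (1.04). Arid5b, a coactivator of Sox9, had a log2 fold change of 0.90. The related Arid5a was counted 405, 436 and 422 times in the WT samples, compared with 669, 478 and 1375 times in the knockout, so that replicate 3 was again the highest of its group, and it did not pass (adjusted p = 0.0571 in edgeR's test). Its log2 fold change of 0.90 was 0.37 without that replicate, and without Sirt6 cKO replicate 2 it was 1.19 and was called. Wwp2, a ubiquitin ligase that Sox9 induces, had a log2 fold change of 0.29, and Runx2, the factor of osteoblasts and hypertrophic chondrocytes, had 0.28, and neither passed. Runx1 and Zfp219 stand in rows where counts and labels did not line up. Sox5 and Sox6, the partners of Sox9 at cartilage enhancers, were not analysed here, nor were Nkx3-2, Runx3, Barx2, Fgfr3, Pth1r and Ihh.

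Col11a1 (ENSMUSG00000027966) lies on chromosome 3 from 114030540 to 114220718 on the plus strand, in 66 exons with 9572 bases of exon. It had raw counts of 143, 215 and 235 in WT replicates 1, 2 and 3 and of 3247, 3622 and 3116 in Sirt6 cKO replicates 1, 2 and 3. The lowest Sirt6 cKO sample lay far above the highest WT sample, and the 3 samples of each genotype were close. Normalised by TMM, these were 202 ± 27.3 counts (SD, n = 3) for WT chondrocytes compared with 3232 ± 222 (SD, n = 3) for Sirt6 cKO chondrocytes. The log2 fold change in edgeR's fit came to 4.0 with a standard error of 0.16 (adjusted p = 2.48e-06), and 44 of the 11246 tested genes had a larger one. Without WT replicate 1, the lowest sample, the log2 fold change was 3.90.

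Col9a3 (ENSMUSG00000027570) lies on chromosome 2 from 180597790 to 180622189 on the plus strand, in 33 exons with 3853 bases of exon, and in the RefSeq annotation its last bases overlap the gene Tcfl5. The raw counts were 151, 162 and 180 in WT samples and 117, 149 and 98 in Sirt6 cKO samples. In normalised counts the highest Sirt6 cKO sample, 142.7, lay under the lowest WT sample, 158.1. The mean was 170 ± 11.3 (SD, n = 3) for WT chondrocytes, and for Sirt6 cKO chondrocytes it was 118 ± 23.8 (SD, n = 3). With a log2 fold change of -0.53 and a standard error of 0.22, edgeR's unadjusted p was 0.0393 and its adjusted p 0.0756, so Col9a3 was not called. Thus the gene for a chain of the fibril core was higher in Sirt6 cKO samples, and the gene for a chain of the fibril surface was not shown to differ.

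Within a sample, the ratio of these collagen genes does not depend on the scaling between samples. Per kilobase of exon, Col11a1 had 0.381, 0.534 and 0.526 times the counts of Col9a3 in the WT samples and 11.2, 9.79 and 12.8 times in the Sirt6 cKO samples. Col9a3 was thus the more abundant of the pair in every WT sample and Col11a1 in every Sirt6 cKO sample. The mean log2 ratio differed by 4.56 between the genotypes (exact two-sided permutation test p = 0.1, the smallest possible), and between 4.40 and 4.65 when any 1 sample was left out.

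Of the other collagen genes of cartilage, Col27a1, a fibrillar collagen of the growth plate, reached 357, 379 and 449 raw counts in the WT samples, and 760, 863 and 794 with the knockout. Its change, 0.94 on the log2 scale with a standard error of 0.14 (adjusted p = 0.00107 in edgeR's test), lay just under the fold threshold, which it passed with upper-quartile normalization. The row labelled Col11a2, the alpha 2 chain of type XI collagen, held 1279 to 1515 counts in WT and 1155 to 1367 in Sirt6 cKO samples, but in its window exon length was related to the count 1 row further down, so its value is uncertain. Col2a1, Col9a1 and Col9a2 were not analysed here.

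Comp (ENSMUSG00000031849) lies on chromosome 8 from 70373548 to 70382065 on the plus strand, in 19 exons with 2425 bases of exon, and its first bases overlap the long noncoding RNA Gm51533 of the RefSeq annotation. It had only 15, 14 and 28 raw counts in WT replicates 1, 2 and 3, against 193, 322 and 182 in Sirt6 cKO replicates 1, 2 and 3. All 3 Sirt6 cKO samples stood well above the WT samples, with Sirt6 cKO replicate 2 the highest. Mean normalised counts were 19.4 ± 6.62 (SD, n = 3) for WT and, for Sirt6 cKO chondrocytes, 225 ± 72.3 (SD, n = 3). With edgeR Comp reached a log2 fold change of 3.52, its standard error was 0.35 and its adjusted p 0.000115, and the change lay between 3.23 and 3.85 when any 1 sample was left out. As shares of all counts, the summed counts of 57 in WT and 697 in Sirt6 cKO samples give a ratio of 11.9 with an exact 95% interval of 9.10 to 15.9, which covers counting error only.

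Of the 4 thrombospondin genes tested, Comp was the 1 called, beside 8.72% of all tested genes called higher. Thbs3, which like Comp forms pentamers, changed by 0.76 on the log2 scale (adjusted p = 0.00152 in edgeR's test), under the fold threshold. Thbs1, an activator of latent TGF-beta, did not pass, with 0.40 on the log2 scale and an adjusted p of 0.0869 in the same test. The row labelled Thbs2 is uncertain, and Thbs4 was not analysed here. The differences between these genes and Comp were not tested. In level, Comp stayed below its relatives, with 92.8 ± 29.8 (SD, n = 3) normalised counts per kilobase of exon in Sirt6 cKO samples against 415 for Thbs3 and 710 for Thbs1.

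Ucma (ENSMUSG00000026668) lies on chromosome 2 from 4976122 to 4985748 on the plus strand, in 5 exons with 884 bases of exon. Its raw counts were 6, 2 and 6 in WT replicates 1, 2 and 3, close to none in libraries of this depth, and 319, 307 and 114 in Sirt6 cKO replicates 1, 2 and 3. Sirt6 cKO replicate 3, the sample with the highest Sox9 count, had the lowest Ucma count of its group. On the normalised scale WT chondrocytes had 4.95 ± 2.69 counts (SD, n = 3), far from the 239.7 ± 112 (SD, n = 3) of Sirt6 cKO chondrocytes. The change of 5.60 on the log2 scale (standard error 0.57, edgeR adjusted p = 0.000124) was exceeded by few genes, since 9 of the 11246 tested genes had a larger one. Without WT replicate 2 it was 5.22 and without Sirt6 cKO replicate 3 it was 5.96. Per total counts, the sums of 14 in WT and 740 in Sirt6 cKO samples give a ratio of 51.6 with an exact 95% interval of 30.5 to 94.8 for counting error. Ucma passed the filter on low counts only through the Sirt6 cKO samples, so a gene of this kind had to differ in order to be tested at all. With at least 10 counts required in every sample, it was not tested.

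Large increases were common among genes with few counts in WT samples. Of the 933 tested genes with fewer than 50 normalised counts in WT chondrocytes, which include Comp and Ucma, 30.4% were called higher, and 25.3% passed the filter only through the Sirt6 cKO samples. Of the 1956 genes with 100 to 500 normalised counts in WT samples, the range of Col11a1 and Col9a3, 13.7% were called higher. In the range of Sox9, 5000 to 20000 normalised counts, 1.78% of 1121 genes were called higher. The shares called lower ran the other way, with 2.79%, 5.62% and 13.0% in these ranges, in the same order.

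Ucma is one of the proteins whose glutamate residues are carboxylated with vitamin K, and of 10 genes listed for such proteins and for the vitamin K cycle, 9 were tested, with 2 called higher and 1 lower, where 8.72% and 7.15% of all tested genes were called. Mgp, which encodes matrix Gla protein, an inhibitor of mineral deposition made by chondrocytes, was the lower one. Its raw counts went from 53, 67 and 93 for the WT samples to 24, 24 and 10 for the knockout samples. This was -1.94 on the log2 scale, with a standard error of 0.39 (edgeR adjusted p = 0.00397). Mgp reached the filter's minimum in all 3 WT samples but not in all 3 Sirt6 cKO samples. It was not called by edgeR's glmTreat against a fold of 2 (adjusted p = 0.0743). Gas6, a Gla protein that activates receptor kinases of the TAM family, was higher, by 1.87 on the log2 scale with a standard error of 0.16 (edgeR adjusted p = 4.7e-05). Furin, the protease that processes Ucma, and Aifm2, a vitamin K reductase, had log2 fold changes of -0.33 and 0.13 and were not called. The rows labelled Ggcx, Vkorc1, Vkorc1l1 and Pros1 are uncertain, and Bglap was not analysed here.

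Over 4 lists of cartilage genes, which name 45 collagens, proteoglycans, adaptor proteins and regulators, 16 genes had a row and were tested, including the 5 genes above. Of the 16, 5 were called higher, which were Col11a1, Comp, Ucma, Trps1 and Scrg1, and 0 were called lower by edgeR, DESeq2 or limma-voom. Mgp, a matrix protein made by chondrocytes that was called lower, is not on these 4 lists. Over all tested genes edgeR called 8.72% higher and 7.15% lower. At an unadjusted p under 0.05, 11 were higher and 2, Col9a3 and Zfp219, were lower in edgeR's test, where 26.7% of all tested genes were higher and 27.8% lower. The median log2 fold change of the 16 genes was 0.90, beside 0.00 for all tested genes. Ucma and Scrg1 were tested only because of their counts in Sirt6 cKO samples, so the count and the median are a description. In the 13 rows where counts and labels lined up, the same 5 genes were called. Scrg1, a secreted protein of chondrocytes and mesenchymal cells, went from 0, 2 and 0 raw counts for WT to 40, 45 and 56 for Sirt6 cKO samples, a ratio of 68.8 per total counts with an exact 95% interval of 18.7 to 573 for counting error. Both WT counts came from replicate 2, and without it the fitted log2 fold change of Scrg1 went from 5.82 to 8.51, which is no bound because the remaining WT samples are at 0.

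The other 29 genes on the lists had no row here, so most of what defines cartilage could not be followed. They include each of the 7 proteoglycans and link proteins listed, Acan, Hapln1, Prg4, Epyc, Fmod, Prelp and Snorc, and the adaptor and small matrix proteins Matn1, Matn2, Matn3, Matn4, Chad, Chadl, Cilp, Cilp2, Cnmd, Cytl1 and Mia. Of 8 hypertrophic markers, Spp1, which encodes osteopontin, and Vegfa had a row. Spp1 had 16028 to 24577 raw counts in WT and 31559 to 32286 in Sirt6 cKO samples, a log2 fold change of 0.53 (adjusted p = 0.00853 in edgeR's test) that did not reach the fold threshold. The row labelled Vegfa is uncertain, and Col10a1, the collagen of hypertrophic cartilage, was not analysed here.

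**Figure D2:**
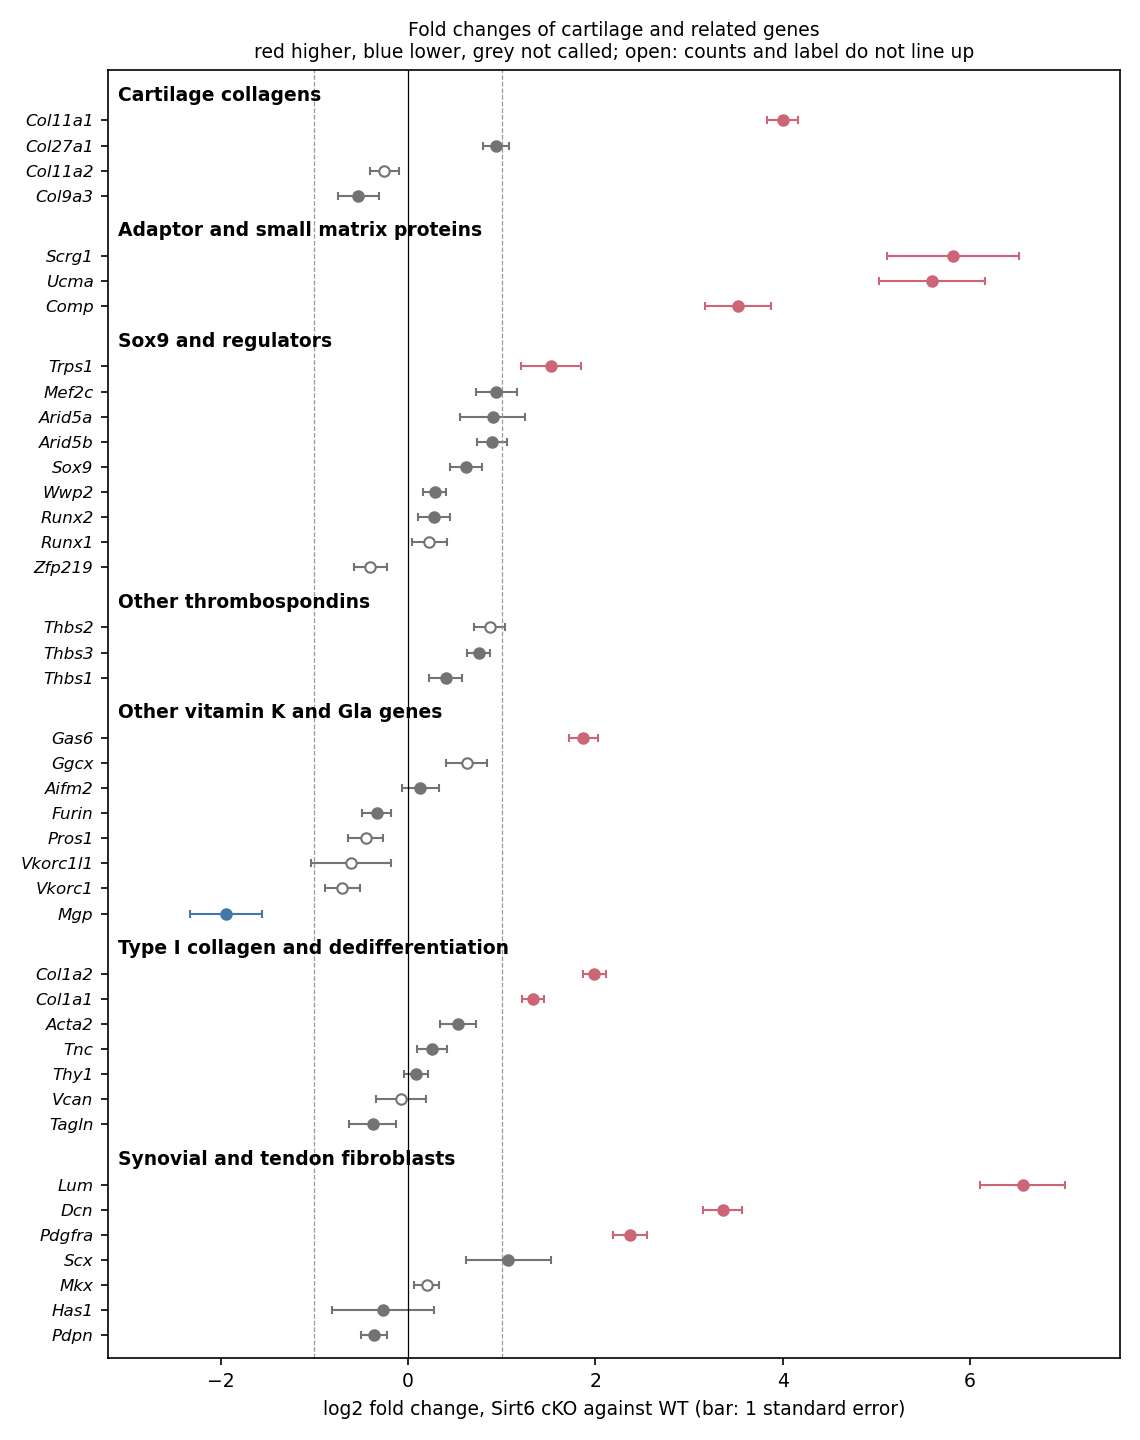
Log2 fold changes of Sirt6 cKO against WT samples (x axis) with 1 standard error from edgeR's fit, for the tested genes of the cartilage lists, the other thrombospondin, vitamin K and Gla genes, and the fibroblast lists. Red points were called higher, blue lower and grey neither, dashed lines mark the fold threshold, and open points stand in rows where counts and labels did not line up. Col11a1 at 4.0, Comp at 3.52, Ucma at 5.60 and Scrg1 at 5.82 stand far to the right of the other cartilage genes, of which Trps1 at 1.53 comes next.

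In level, the 5 genes were far apart, and their order differed between the genotypes. Per kilobase of exon, the WT samples held 1335 ± 75.6 normalised counts of Sox9, 44.1 ± 2.94 of Col9a3, 21.1 ± 2.85 of Col11a1, 8.01 ± 2.73 of Comp and 5.59 ± 3.05 of Ucma (each SD, n = 3). Comp and Ucma overlapped and were not separated by their spread. In Sirt6 cKO samples the order was Sox9 with 2052 ± 478, Col11a1 with 338 ± 23.1, Ucma with 271 ± 127, Comp with 92.8 ± 29.8 and Col9a3 with 30.6 ± 6.18 (each SD, n = 3). There Ucma, with 355.7, 332.5 and 125.3 in replicates 1, 2 and 3, stood above Comp within each sample, with 78.45, 127.1 and 72.95. Over samples, the ranges of Ucma and Comp still overlapped. Against Col11a1, with 334.4, 362.3 and 316.4, Ucma was higher in replicate 1 and lower in replicates 2 and 3, so those genes were not separated. Col9a3 was therefore second of the 5 in WT and last in Sirt6 cKO samples.

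By mean normalised count among all 11659 genes of the table, Sox9 ranked 1125th in WT samples, Col11a1 9157th, Col9a3 9333rd, Comp 10876th and Ucma 11332nd. Fewer counts than those of Comp were found for 6.72% of the genes in WT samples and fewer than those of Ucma for 2.81%. In Sirt6 cKO samples Sox9 ranked 525th, Col11a1 2156th, Ucma 9167th, Comp 9233rd and Col9a3 9878th. By count, Comp stood above 20.8% of the genes and Ucma above 21.4% in Sirt6 cKO samples, and Col11a1 went from above 21.5% to above 81.5% of the genes. Where levels are ranked per kilobase instead, as in the plot of levels against rank, the lengths are those of the labelled genes. On that scale Ucma, whose exons sum to only 884 bases, went from above 2.86% to above 47.0% of the genes, and Col11a1 from above 9.43% to above 53.4%. The type I collagen genes, which chondrocytes in cartilage scarcely use, ranked 7th (Col1a1) and 3rd (Col1a2) by count in WT samples and 2nd and 1st in Sirt6 cKO samples. Per kilobase they ranked 91st and 113th in WT samples and 26th and 18th in Sirt6 cKO samples. The 4 cartilage matrix genes Col11a1, Col9a3, Comp and Ucma thus stood low in the WT samples labelled as chondrocytes, while Sox9 stood high.

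**Figure D3:**
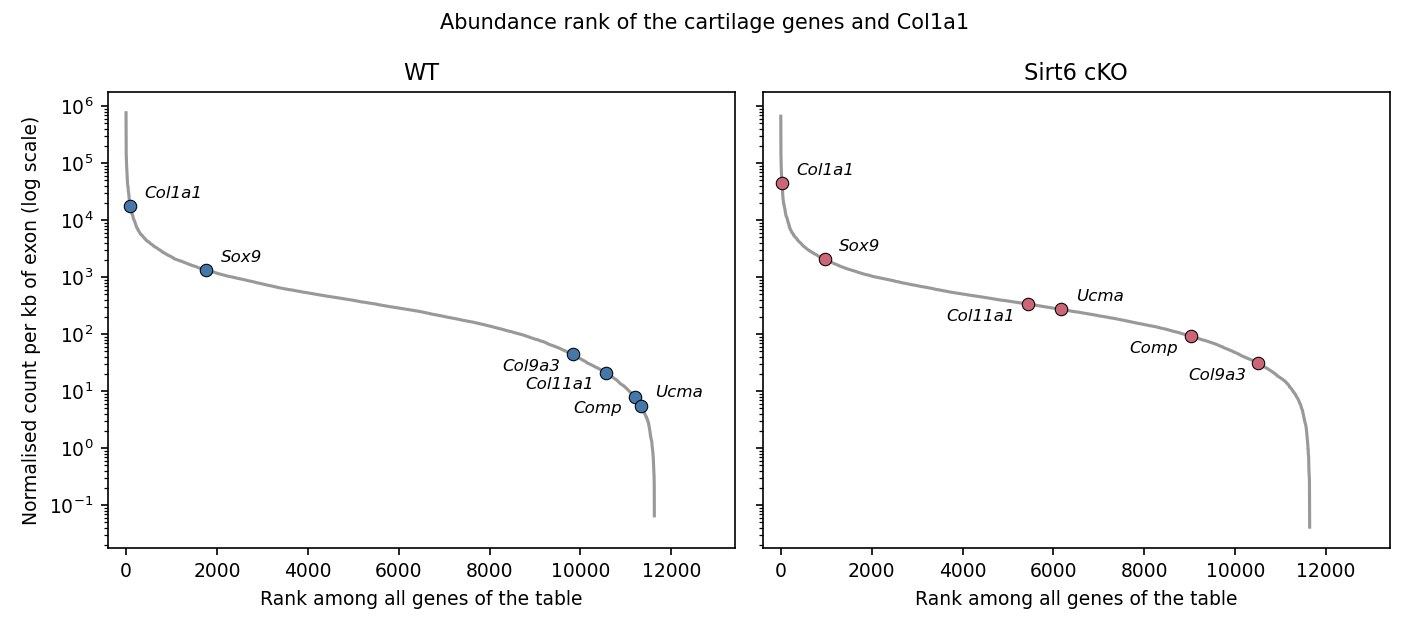
Mean normalised count per kilobase of exon (y axis, log scale) against rank among all genes (x axis) in WT (left) and Sirt6 cKO samples (right), where the grey line holds all genes with counts. Comp and Ucma, at 8.01 and 5.59 in WT samples, lie at the low end of the line, and Col1a1, ranked 91st on this scale, near its top. In Sirt6 cKO samples Col11a1 and Ucma lie near the middle at 338 and 271.

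Some genes that mark dedifferentiated chondrocytes and fibroblasts were also higher in the Sirt6 cKO samples, among them those of type I collagen, while most of those tested were not called. For Col1a1, the WT samples had 98722, 115797 and 123176 raw counts, and the knockout samples had 316084, 308227 and 280201. It rose by 1.34 on the log2 scale with a standard error of 0.11 (edgeR adjusted p = 5.3e-05). Col1a1 and Col1a2 together took 0.990% to 1.08% of all counts in WT and 3.37% to 3.92% in Sirt6 cKO samples. Of 12 genes listed for dedifferentiation, 7 had a row and 2 were called higher, Col1a1 and Col1a2, beside the 8.72% of all tested genes. The others were not called, with log2 fold changes from -0.38 for Tagln to 0.53 for Acta2, and among them the row labelled Vcan is uncertain. The 6 genes whose rows line up summed to 330875 to 338256 normalised counts in WT and 996535 to 1143138 in Sirt6 cKO samples. Most of this sum was type I collagen, with mean normalised counts of 116078 in WT and 293004 in Sirt6 cKO samples for Col1a1 and of 191414 and 760047 for Col1a2. Of 11 genes listed for synovial and tendon fibroblasts, 8 had a row and 3 were called higher, which were the proteoglycans Dcn and Lum and the receptor Pdgfra, of which Lum passed the filter only through the Sirt6 cKO samples. The 7 whose rows line up summed to 17904.5 to 22287 in WT and 83241 to 95130 in Sirt6 cKO samples. Most of it was Pdgfra, with means of 8991 and 46558, and Dcn, with 3451 and 35554. Lum had 0, 4 and 4 raw counts in WT samples but 257, 249 and 326 in the knockout. Scx, the tendon factor, had 14 to 24 in WT samples and 24, 57 and 45 in the knockout, a log2 fold change of 1.07 that did not pass (edgeR adjusted p = 0.0786). Prg4, made by synovial and superficial cartilage cells, was not analysed here, and Thy1, Pdpn and Has1 were not called, with log2 fold changes of 0.09, -0.36 and -0.26. The row labelled Mkx, also not called, is uncertain. The part of these cells in the changes of the cartilage genes was not tested. Of the lists for osteoblasts and endothelial cells no gene had a row. For macrophages, adipocytes, muscle and blood, the genes in rows that line up were Cd68, with 6 to 52 raw counts over all samples, and Des, with 97 to 107 in WT and 203 to 231 in Sirt6 cKO samples.

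Set against Col1a1 within each sample, the cartilage genes separated. Per kilobase of exon, the ratio of Col11a1 to Col1a1 went from 0.000993, 0.00127 and 0.00131 for the WT samples to 0.00704, 0.00806 and 0.00763 for the knockout samples, a difference of 2.68 in mean log2 ratio. Comp to Col1a1 was 0.000411, 0.000327 and 0.000615 for WT, compared with 0.00165, 0.00283 and 0.00176 for Sirt6 cKO samples, a difference of 2.21. Both ratios were higher in every Sirt6 cKO sample than in any WT sample. Sox9 to Col1a1 went the other way, from 0.0791, 0.0752 and 0.0721 for WT down to 0.0388, 0.0381 and 0.0626 for Sirt6 cKO samples, a difference of -0.74 in mean log2 ratio. Sox9 therefore was lower relative to Col1a1 in every Sirt6 cKO sample, although its share of all counts was higher, and without Sirt6 cKO replicate 3 the difference was -0.97. In each of the 4 ratios compared, the exact two-sided permutation test gave p = 0.1, which is the smallest possible and stays 0.1 after Benjamini-Hochberg adjustment.

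**Figure D4:**
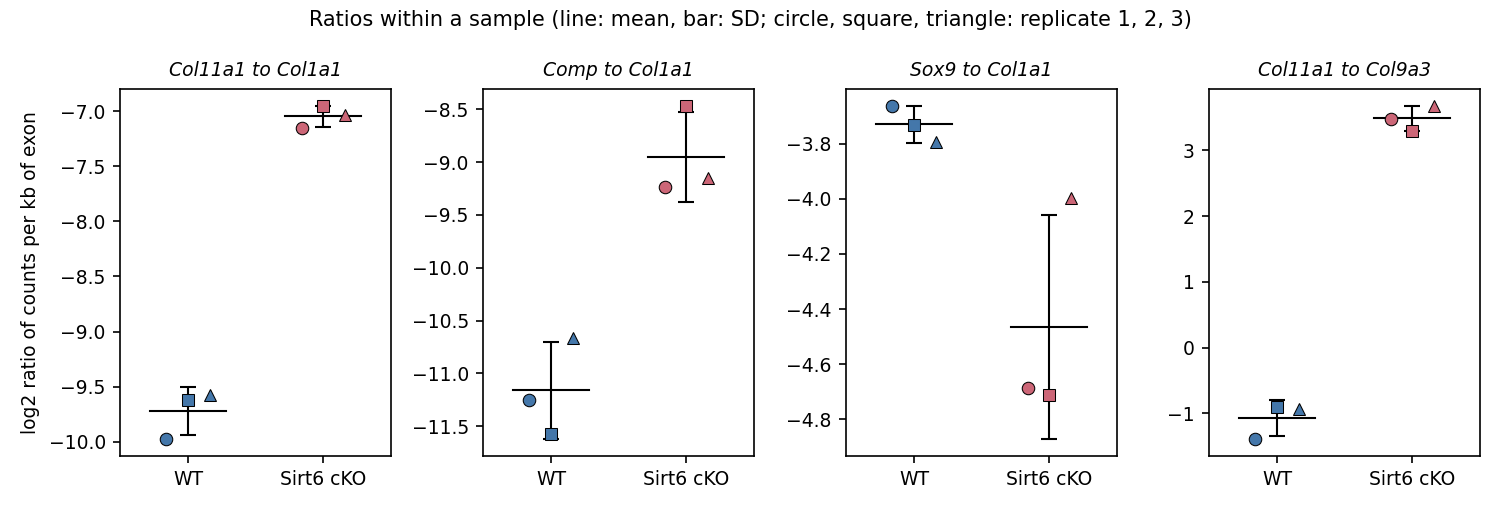
Log2 ratio of counts per kilobase of exon (y axis, a separate scale for each ratio) within each of the 3 WT and 3 Sirt6 cKO samples. Lines are means, bars the SD and symbols the samples. Col11a1 and Comp were higher relative to Col1a1 in Sirt6 cKO samples, by 2.68 and 2.21, Sox9 was lower by -0.74, and Col11a1 rose relative to Col9a3 by 4.56.

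For each gene, the 3 genes most like it over the 6 samples were taken from 6172 named genes with at least 100 normalised counts on average in rows that line up, by Pearson's r of log2 CPM. Because the samples form 2 genotypes, r mostly follows the difference between them, and it is given as a description. Col11a1 was most like Arhgap44 (r = 0.9991), Thsd7a and Specc1l, of which Arhgap44 had 22 to 31 raw counts in WT and 392 to 420 in Sirt6 cKO samples. The genes most like Comp were Napepld (r = 0.9986), Oas1c and Nmnat2, and those most like Ucma were Tmco3 (r = 0.9993), Calml4 and Cxxc5. For these 3 cartilage genes, 397 to 563 of the genes compared had an r over 0.95, so the likeness is shared widely. Sox9 was most like Stau1 (r = 0.9961), Reep6 and Angptl4, and 93 genes had an r over 0.95. Angptl4 was counted 1689 to 1747 times in the WT samples but 3722, 2924 and 9818 times in the knockout samples, so that replicate 3 stood highest there too. Col9a3 was most like Cic (r = 0.9915), Paf1 and 2610507B11Rik, none of which was called.

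The spread over the processing alternatives differed between genes. Over 18 alternatives Col11a1 lay between 3.90 and 4.09, and over 17 Ucma lay between 5.22 and 5.96.

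**Figure D5:**
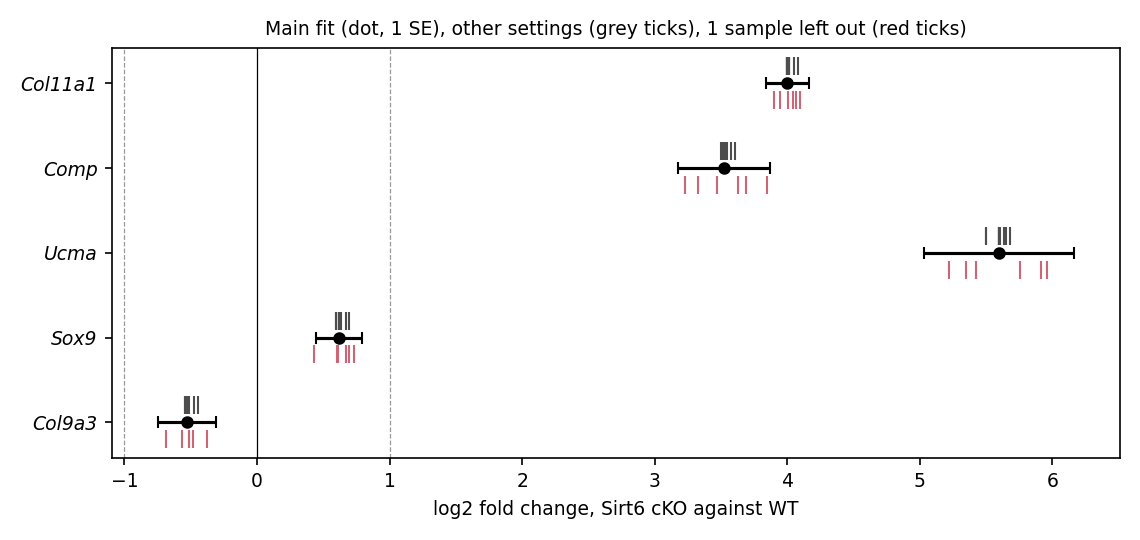
Log2 fold change of Sirt6 cKO against WT samples (x axis) of the 5 cartilage genes in the main fit (dot with 1 standard error), under other settings (grey ticks) and with 1 sample left out (red ticks), where dashed lines mark the fold threshold. Col11a1, Comp and Ucma stay above the threshold, and Sox9 (0.43 to 0.73) and Col9a3 (-0.69 to -0.38) stay within it.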

How the data were processed

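The deposited values are raw counts of reads for Ensembl genes, in 1 table that the authors did not normalize, with exon positions and summed exon length in the layout of featureCounts. The submitters' processing notes name cutadapt, HISAT2 2.0.5, StringTie and the build hg19, although the positions are of mouse chromosomes. The counter and the strand setting are not given in the sources used here. All 6 columns of counts were mapped to genotype and replicate by their names and the sample titles. Genes were named by sharing at least 0.5 of their joint span with a RefSeq gene (GRCm38.p6), which named 91.0% of the rows, against 9.0% when positions were shifted by 1 Mb. Positions are those of the table.

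Differential expression was computed with edgeR 4.0.16 in R 4.3.3 (TMM scaling, the filter of filterByExpr, then glmQLFit and glmQLFTest with no term besides genotype). The filter left out 413 of 11659 genes. Standard errors are log2 fold changes over the square root of F. The edgeR fit was also run on simulated counts, and the outcome is not reported here. Exact permutation tests used scipy 1.17.1. Ratios of summed counts carry exact 95% (Clopper-Pearson) intervals. Deviations from the genotype means had correlations of 0.262, 0.104 and 0.136 between samples with the same replicate number in their titles. Between samples with different numbers the correlations lay between -0.227 and 0.062. A fit with the number as a block was added. Alternatives were DESeq2 1.42.0, voom from limma 3.58.1, other normalizations and filters, other thresholds and each sample left out. A fit to only the rows that line up was added after the data were seen.

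The genes and lists were chosen with earlier results of these data known. Named were the 5 genes, Sirt6, the cartilage genes with a row, the genes called on the other lists and the 3 genes most like each of the 5. Genes named in addition from the other lists were chosen after their values were seen. The row labelled Lyz2 was called higher but is uncertain. Promoter motifs, planned beforehand, were not analysed here.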

Additional observations from a re-analysis of the deposited data

How the results depend on the processing

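In every one of the 18 alternatives for Col11a1, Comp, Sox9 and Col9a3, and the 17 that tested Ucma, the direction was that of the main result. The changed thresholds and glmTreat reuse the fold change of the main fit, so their direction could not differ. Comp lay between 3.23 and 3.85. Sox9, at 0.62, was called only with no fold threshold. Leaving out 1 sample gave ranges of 3.90 to 4.09 for Col11a1, 5.22 to 5.96 for Ucma, 0.43 to 0.73 for Sox9 and -0.69 to -0.38 for Col9a3. The replicate block gave log2 fold changes of 4.01, 3.50, 5.50, 0.60 and -0.54 for Col11a1, Comp, Ucma, Sox9 and Col9a3 and changed no call among them or in the cartilage lists. Without the fold threshold 2530 genes were higher and 2736 lower, and 9 cartilage genes were higher. Upper-quartile normalization called 7 cartilage genes higher, adding Mef2c and Col27a1, and glmTreat called 4. With glmTreat the numbers over all genes were 412 and 340. With only the rows that line up they were 602 and 511, because fewer genes were tested. With at least 10 counts in every sample 3 cartilage genes were called, since Ucma and Scrg1 were no longer tested. Ranked per kilobase of exon, Col11a1 stood at 10560 in WT and 5438 in Sirt6 cKO samples, Sox9 at 1761 and 966, and Col9a3 at 9829 and 10512. Comp stood at 11198 in WT samples, and Ucma at 11326 in WT and 6176 in Sirt6 cKO samples. Depth limits Ucma, Scrg1 and Comp in WT samples, where counts were 28 or fewer.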
